A study of Mus musculus with 8 samples.

Results

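The genes described are 36 that encode the calcium channels of the plasma membrane, the calcium release receptors of the endoplasmic reticulum and the calcium pumps of both membranes. They were taken by name from a table of 33971 genes, and each was found once. The list was put together by gene family with the diet comparison of these same brains already known, so the values below describe the list and are not independent evidence of its direction. RNA was measured in bulk in whole brains of wild-type (WT) mouse embryos at E14.5, 4 from dams on a choline-deficient diet (CDD) and 4 from dams on a normal diet (ND). The embryos of both groups were WT, so diet of the dam is the single labelled difference. The start of the diet is given differently in the sources used, on the day of mating in one place and before mating in another. How many dams and litters gave these brains is not stated, so the p-values measure only the spread between these brains. Library totals were between 31770217 and 43121170 counts, and brains of one diet differed by more than the noise of counting.

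Calcium ions act as a messenger because cells hold them at a very low concentration in the cytosol and let them in through gated pores. Voltage-gated channels in the plasma membrane consist of a pore subunit, the alpha1 protein, with auxiliary alpha2delta and beta subunits that set how many pores reach the surface and how they open. Inside the cell, ryanodine receptors and inositol trisphosphate (IP3) receptors release calcium from the endoplasmic reticulum. The SERCA pumps refill that store, the PMCA pumps expel calcium across the plasma membrane, and the STIM sensors open Orai channels when the store runs low. In the brain these proteins serve transmitter release, firing patterns and gene regulation in neurons, and spontaneous calcium transients accompany the growth of young neurons.

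All 36 genes passed the filter on low counts. In CDD brains 8 of them fell and 0 rose, at an adjusted p under 0.05 in edgeR's quasi-likelihood test over all 19367 genes tested. Of all genes tested, 8.83% were called, 4.59% lower and 4.24% higher in CDD, and nothing is read from the difference to the share in the list. The 8 genes were *Car8*, *Ryr3*, *Ryr1*, *Itpr1*, *Itpr3*, *Cacna1d*, *Cacna1i* and *Cacna1e*. The log2 fold change of CDD over ND was below 0 for 29 of the 36 genes, against 50.9% of all genes tested, and its median was -0.10 against -0.00. All 4 CDD brains lay below, or all 4 above, the ND brains for 11 of the 36 genes, and 15.0% of all genes tested had diets that separated in this way. At an unadjusted p under 0.05 the test marked 18 of the 36 genes, against 23.9% of all genes.

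By role of the protein, the calls lay as follows. Among the 6 release receptors of the store, 4 fell, and their median log2 fold change was -0.30. With *Car8*, a protein that binds an IP3 receptor, 5 of 7 fell and the median was -0.32. Of the 16 subunits of voltage-gated channels 3 fell, all of them pore subunits, with a median of -0.10 over the 16. None of the 7 pumps (median -0.07) and none of the 5 genes of store-operated entry (median -0.05) was called by this test, while 3 of the pumps and 1 gene of store-operated entry had an unadjusted p under 0.05. A difference between roles was not tested.

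**Figure D1:**
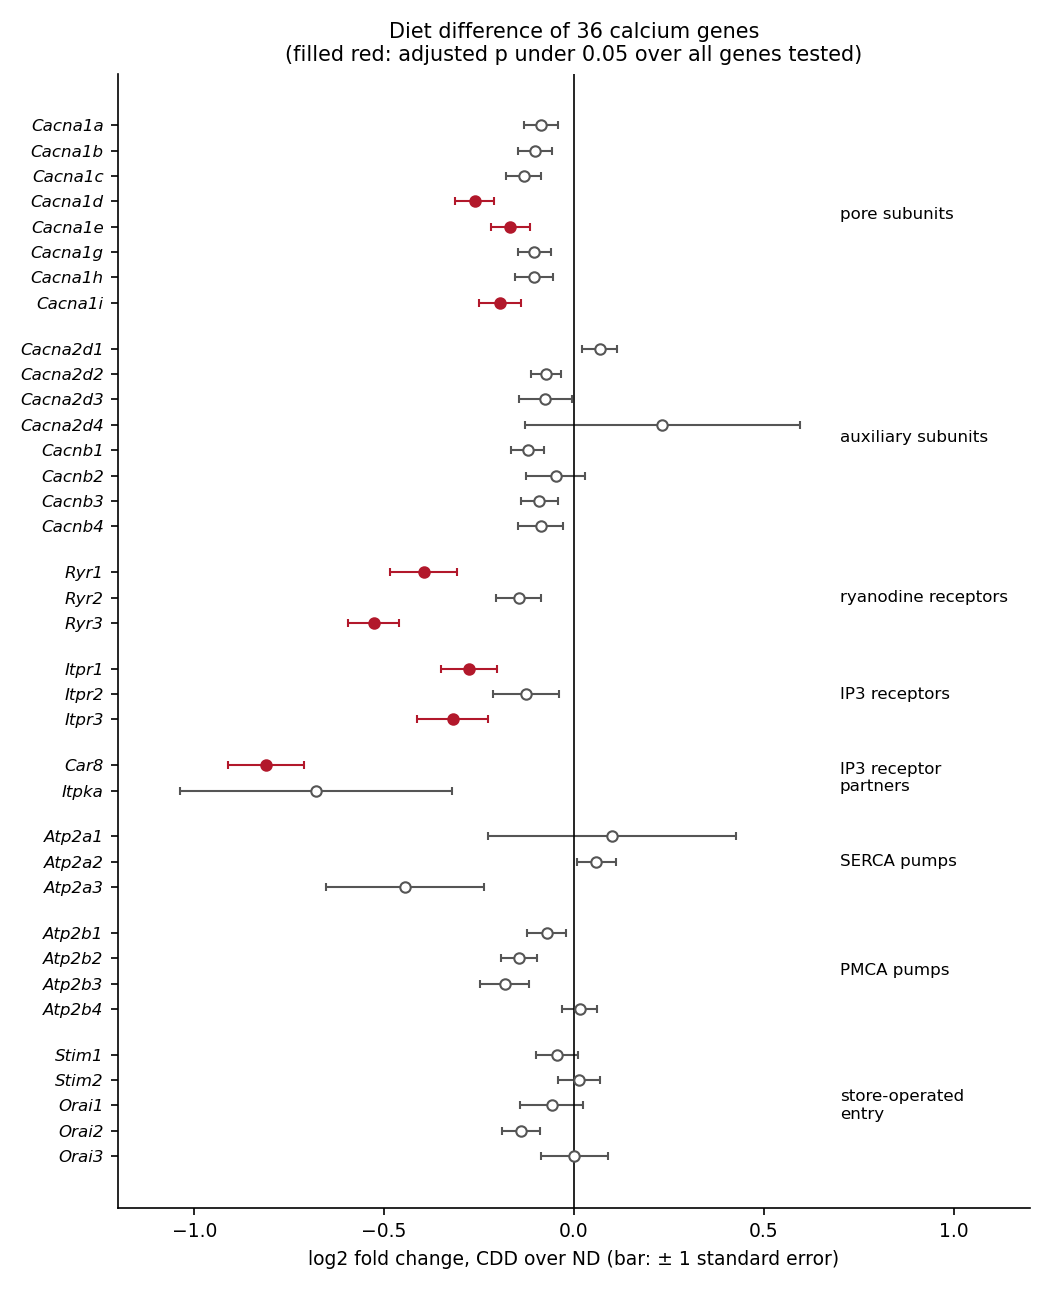
Log2 fold change of CDD over ND for each of the 36 genes, grouped by role, with bars of 1 standard error. Filled red points are the 8 genes called by edgeR's test, all to the left of 0, and they lie among the pore subunits, the ryanodine and IP3 receptors and the partners of the IP3 receptors.

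*Car8* (ENSMUSG00000041261, chromosome 4, 8143362 to 8239041, minus strand, in a genome build that the sources used here do not name) encodes a carbonic anhydrase-related protein without the enzyme activity, which binds the IP3 receptor encoded by *Itpr1* and lowers its affinity for IP3. Its normalised read count, in CPM, the count scaled to a common library size, was 4.59, 5.07, 4.51 and 5.10 in CDD replicates 1 to 4 and 9.22, 7.94, 8.73 and 7.89 in ND replicates 1 to 4. The highest CDD brain was thus well below the lowest ND brain. The means were 4.82 ± 0.312 CPM in CDD and 8.44 ± 0.644 CPM in ND (SD, n = 4 each), 43.0% lower in CDD. Its log2 fold change of -0.81 (SE 0.10, edgeR adjusted p = 5.66e-04) was the largest fall of the 36 genes. *Itpka*, an IP3 kinase that converts IP3 to the tetrakisphosphate, was read at only 7 to 26 counts per brain. Its log2 fold change of -0.68 came with an adjusted p of 0.259 in edgeR's test, so a change was not detectable at this depth.

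*Ryr3* (ENSMUSG00000057378, chromosome 2, 112461700 to 113047441, minus strand) encodes the ryanodine receptor that is best known from brain and from developing muscle. It stood at 35.2, 35.4, 39.5 and 34.7 CPM in CDD replicates 1 to 4 and at 49.1, 46.8, 57.5 and 55.3 CPM in ND replicates 1 to 4. CDD replicate 3 was the highest of its group and still lay under every ND brain. The means of 36.2 ± 2.24 and 52.2 ± 5.06 CPM (SD, n = 4 each) differed by 30.6%, with a log2 fold change of -0.53 (SE 0.066, edgeR adjusted p = 5.66e-04). *Ryr1* (ENSMUSG00000030592, chromosome 7, 28702769 to 28824604, minus strand), the main ryanodine receptor of skeletal muscle, which is also made in neurons, was at 39.1, 32.0, 41.2 and 30.1 CPM in the CDD brains. In the ND brains it was at 43.7, 46.6, 49.4 and 47.8 CPM. CDD replicates 2 and 4 were the lowest, and the gap to the lowest ND brain was narrow. *Ryr1* was 24.0% lower in CDD (35.6 ± 5.40 against 46.9 ± 2.44 CPM, SD, n = 4 each), with a log2 fold change of -0.40 (SE 0.088, edgeR adjusted p = 0.0151). *Ryr2*, the ryanodine receptor of heart muscle and the form that prevails in much of the adult brain, did not pass the threshold. It was at 35.4 to 39.5 CPM in CDD and 38.9 to 44.6 CPM in ND, with overlapping brains and a log2 fold change of -0.15 (adjusted p = 0.134 by edgeR).

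The 3 ryanodine receptors therefore stood in different proportions under the 2 diets. On the scale of FPKM, which divides by gene length and so allows levels of different genes to be compared, *Ryr3* took 41.5% to 45.1% of the ryanodine receptor level in ND brains and 38.1% to 41.1% in CDD brains. The share of *Ryr2* was 21.3% to 23.5% in ND and 25.2% to 29.2% in CDD, and the share of *Ryr1* overlapped. The ratio of the *Ryr3* level to the *Ryr2* level was 1.84, 1.83, 2.12 and 1.88 in ND replicates 1 to 4 and 1.51, 1.36, 1.55 and 1.48 in CDD replicates 1 to 4. Every CDD brain was below every ND brain in this ratio, which averaged 1.47 ± 0.0814 against 1.92 ± 0.136 (SD, n = 4 each). A ratio within a brain shows that the pair of genes differed unequally, not that *Ryr2* was unchanged.

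*Itpr1* (ENSMUSG00000030102, chromosome 6, 108190057 to 108528070, plus strand) encodes the IP3 receptor that prevails in neurons and is especially abundant in Purkinje cells. It was at 50.3, 38.8, 48.6 and 44.4 CPM in CDD replicates 1 to 4 and at 51.5, 51.8, 59.4 and 57.8 CPM in ND replicates 1 to 4. CDD replicate 1 came within little more than 1 CPM of ND replicate 1, so the groups were separate but adjacent. The means were 45.5 ± 5.12 and 55.1 ± 4.07 CPM (SD, n = 4 each), with a log2 fold change of -0.28 (SE 0.074, edgeR adjusted p = 0.0298). *Itpr3* (ENSMUSG00000042644, chromosome 17, 27276278 to 27341197, plus strand), an IP3 receptor better known from secretory epithelia and taste cells, was at 7.12, 8.78, 9.66 and 9.02 CPM in CDD and 10.9, 10.5, 11.3 and 10.6 CPM in ND. All 4 CDD brains were below all ND brains, CDD replicate 1 the farthest. Its log2 fold change was -0.32 (SE 0.093, edgeR adjusted p = 0.0385), from means of 8.65 ± 1.08 and 10.8 ± 0.392 CPM (SD, n = 4 each). *Itpr2*, the IP3 receptor known from astrocytes and heart, had a log2 fold change of -0.13 and overlapping brains, and was not called.

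Of the 3 IP3 receptors, *Itpr1* held 55.7% to 66.0% of the summed FPKM in CDD and 59.1% to 62.6% in ND, so the make-up of the family overlapped between the diets although its sum did not. *Car8* was lower relative to its partner: the ratio of *Car8* to *Itpr1* in FPKM was 0.434 to 0.621 in CDD and 0.648 to 0.851 in ND. The ratio of *Itpr1* to *Atp2a2* sets a release receptor over the main pump of the same store. It was 0.0318 to 0.0447 in CDD and 0.0455 to 0.0501 in ND, again without overlap. The other ratios computed, *Ryr1* to *Ryr2*, *Itpr1* to *Itpr2*, *Cacna1d* to *Cacna1c*, *Cacna1i* to *Cacna1g* and *Cacna1e* to *Cacna1b*, overlapped between the diets.

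**Figure D2:**
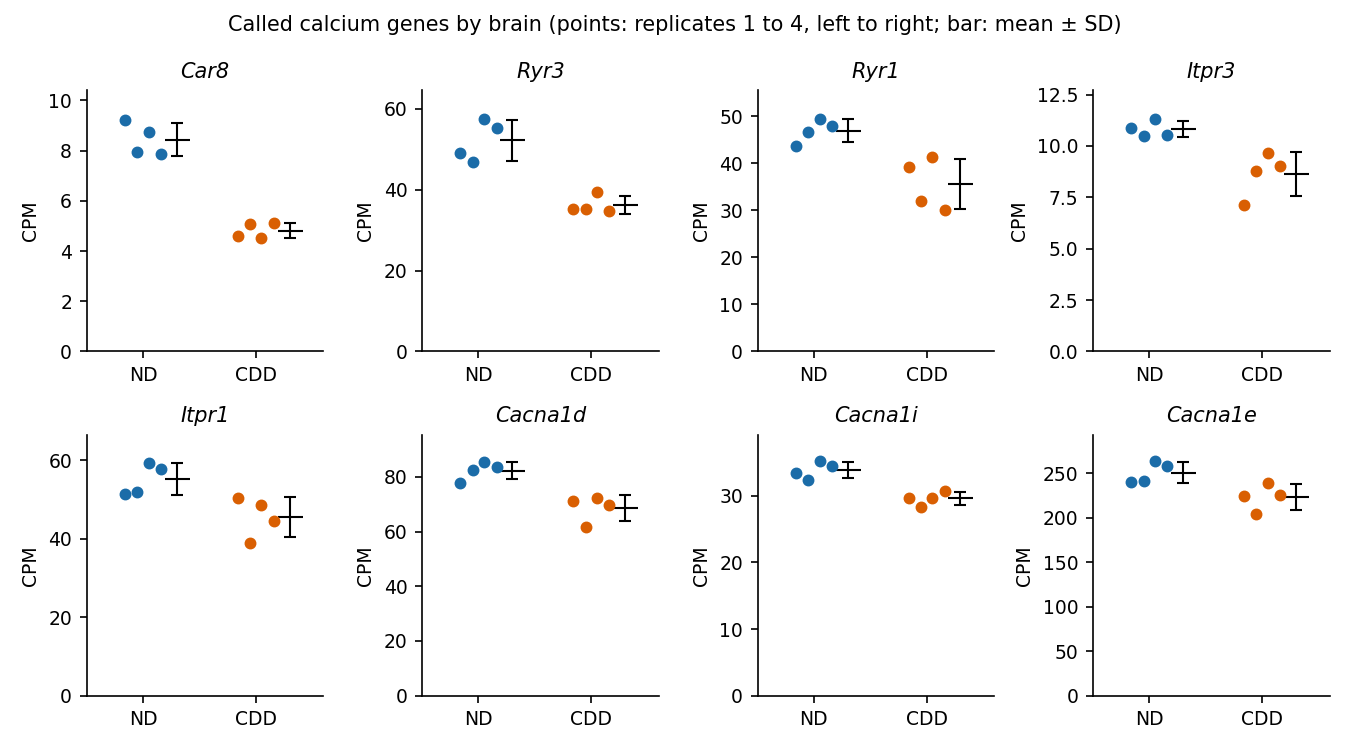
CPM of the 8 called genes in each brain, ND in blue and CDD in orange, with replicates 1 to 4 from left to right and the mean ± SD beside them; each axis starts at 0. The CDD points lie below the ND points in all 8 panels, with the widest gap for *Car8* and *Ryr3* and a narrow one for *Itpr1* and *Cacna1e*.

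All 8 pore subunits of voltage-gated channels had a log2 fold change below 0, under each scaling tried, and 3 of them fell. *Cacna1d* (ENSMUSG00000015968, chromosome 14, 29761896 to 30213412, minus strand) encodes an L-type pore that opens at fairly negative voltages and paces firing. It was at 71.0, 61.6, 72.4 and 69.6 CPM in CDD replicates 1 to 4 and at 77.8, 82.3, 85.3 and 83.8 CPM in ND replicates 1 to 4. CDD replicate 2 was the lowest brain, and the other 3 CDD brains also stayed below the ND range. *Cacna1d* was 16.5% lower in CDD (68.7 ± 4.82 against 82.3 ± 3.21 CPM, SD, n = 4 each), a log2 fold change of -0.26 (SE 0.051, edgeR adjusted p = 0.00477). Its share of the pore subunit FPKM was 4.83% to 5.47% in CDD and 5.66% to 5.76% in ND, and no other pore subunit had shares that separated the diets. *Cacna1c*, the other L-type pore among the 36, had a log2 fold change of -0.13 (SE 0.046, edgeR adjusted p = 0.0747) and overlapping brains.

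*Cacna1i* (ENSMUSG00000022416, chromosome 15, 80171439 to 80282480, plus strand) encodes a T-type pore, which opens at low voltages and supports burst firing, and is made mainly in neurons. It was at 29.6, 28.4, 29.7 and 30.7 CPM in CDD and 33.5, 32.4, 35.2 and 34.4 CPM in ND. The brains of each diet lay close together, and the change was small, with a log2 fold change of -0.19 (SE 0.055, edgeR adjusted p = 0.0348). The other T-type pores, *Cacna1g* (log2 fold change -0.10, adjusted p = 0.148 by edgeR) and *Cacna1h* (-0.11, adjusted p = 0.205 by edgeR), were not called. *Cacna1h*, the pore subunit with the highest FPKM in ND, was at 204, 209, 229 and 222 CPM in CDD and 214, 238, 237 and 240 CPM in ND. Its diets overlapped through ND replicate 1, while those of *Cacna1g* did not overlap.

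*Cacna1e* (ENSMUSG00000004110, chromosome 1, 154266477 to 154760247, minus strand) encodes the R-type pore of neurons. It was at 224, 204, 239 and 226 CPM in CDD replicates 1 to 4 and at 240, 241, 264 and 258 CPM in ND replicates 1 to 4. CDD replicate 3 and ND replicate 1 almost met. The means of 223 ± 14.4 and 251 ± 11.9 CPM (SD, n = 4 each) gave a log2 fold change of -0.17 (SE 0.051, edgeR adjusted p = 0.0473), the called gene closest to the threshold. The pores of P/Q-type and N-type channels, which carry the calcium for transmitter release, had log2 fold changes of -0.09 for *Cacna1a* and -0.10 for *Cacna1b*, and neither was called.

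Among the 8 auxiliary subunits none was called by edgeR's test, DESeq2 or limma-voom, and 1 had an unadjusted p under 0.05. That gene was *Cacnb1*, a beta subunit of skeletal muscle and brain channels, with a log2 fold change of -0.12 (SE 0.042, edgeR adjusted p = 0.0758) and separate diets. *Cacnb3*, the beta subunit with the highest level, was at 224, 238, 258 and 226 CPM in CDD and 243, 255, 256 and 255 CPM in ND. These groups overlapped, with CDD replicate 3 above all ND brains. The log2 fold changes were -0.09 for *Cacnb3* and *Cacnb4* and -0.05 for *Cacnb2*. The alpha2delta genes lay on both sides of 0, at 0.07 for *Cacna2d1*, -0.07 for *Cacna2d2*, -0.08 for *Cacna2d3* and 0.23 for *Cacna2d4*, the last read at 7 to 21 counts per brain.

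None of the 7 pumps was called by edgeR's test, DESeq2 or limma-voom. *Atp2b2* was called lower in 4 other fits, at an adjusted p of 0.0446 with no filter on low counts, 0.0165 with a gene length offset, 0.0216 with that offset and a replicate block, and 0.0337 with *Xist* as a covariate, each by edgeR. It was also called without CDD replicate 4, and *Atp2a3* without CDD replicate 2. *Atp2a2*, the SERCA pump of most cells, was at 373, 405, 392 and 436 CPM in CDD and 375, 376, 393 and 398 CPM in ND. The diets overlapped, with both the lowest and the highest brain in the CDD group, and the log2 fold change was 0.06 (SE 0.052). *Atp2a2* made up 99.0% to 99.5% of the SERCA FPKM in CDD. *Atp2a3*, the SERCA pump of blood and endothelial cells and of some neurons, was low, at 1.59 ± 0.546 CPM in CDD and 2.15 ± 0.297 CPM in ND (SD, n = 4 each), with a log2 fold change of -0.45 and overlapping brains. *Atp2a1*, the pump of fast muscle, was lower still, with means under 1 CPM and a log2 fold change of 0.10.

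Of the PMCA pumps, *Atp2b2* (log2 fold change -0.14, SE 0.047, edgeR adjusted p = 0.0623) was the gene nearest to the threshold among those not called, followed among the pumps by *Atp2b3* (-0.18, SE 0.065, edgeR adjusted p = 0.0858). Both are made mainly in neurons and other excitable or sensory cells. The brains were separate for *Atp2b3* and overlapped for *Atp2b2*. The share of *Atp2b2* in the PMCA FPKM was 19.6% to 20.7% in CDD and 20.9% to 21.6% in ND, without overlap. Shares of the other PMCA pumps overlapped. *Atp2b1*, the widespread PMCA pump with the highest level, was at 170, 197, 169 and 188 CPM in CDD and 187, 182, 200 and 192 CPM in ND, and *Atp2b4* had a log2 fold change of 0.02. The CDD brains of *Atp2b1* spanned a wider range than the ND brains and overlapped them.

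None of the 5 sensors and channels of store-operated entry was called by edgeR's test, DESeq2 or limma-voom. *Orai2*, the Orai channel with the highest level, was at 53.7, 54.5, 59.8 and 56.5 CPM in CDD and 65.0, 58.7, 59.9 and 63.7 CPM in ND. Its log2 fold change was -0.14 (SE 0.051, edgeR adjusted p = 0.0922), and CDD replicate 3 lay above ND replicate 2. *Stim1*, *Stim2*, *Orai1* and *Orai3* had log2 fold changes of -0.05, 0.01, -0.06 and 0.00.

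Families were also compared by the sum of their FPKM. The pore subunits summed to 83.7 to 89.9 FPKM in CDD and 90.1 to 97.5 in ND. The ryanodine receptors summed to 4.46 to 5.30 FPKM in CDD and 5.92 to 6.67 in ND, and the IP3 receptors to 3.79 to 4.32 and 4.62 to 5.25. These 3 families did not overlap between the diets. The SERCA pumps (61.4 to 72.4 FPKM in CDD, 61.9 to 65.6 in ND) and the PMCA pumps (31.9 to 35.5 in CDD, 34.2 to 36.8 in ND) overlapped, as did the alpha2delta, beta, STIM and Orai families.

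**Figure D3:**
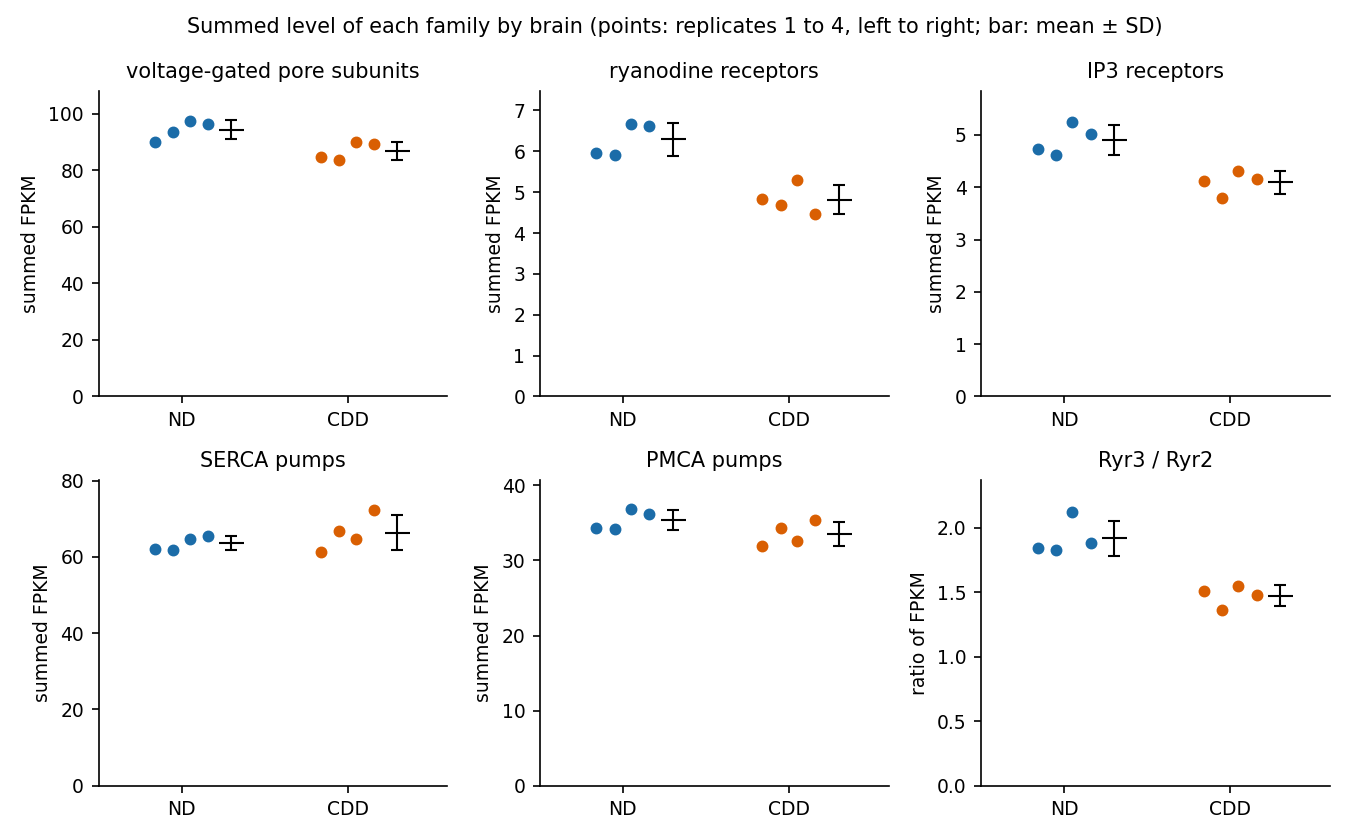
Summed FPKM per brain for the pore subunits, the ryanodine receptors, the IP3 receptors, the SERCA pumps and the PMCA pumps, and the ratio of *Ryr3* to *Ryr2*; ND is blue, CDD orange, replicates 1 to 4 run from left to right and the bar is the mean ± SD. The CDD points are below all ND points in the panels of the pores, the receptors and the ratio, and mix with them in both pump panels.

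The levels themselves spanned a wide range. In ND brains *Atp2a2* (63.0 ± 1.83 FPKM, SD, n = 4) and *Cacnb3* (62.5 ± 1.45 FPKM) were the highest, with brains that overlapped each other. *Cacnb1* (25.1 ± 0.720 FPKM) and *Cacna1h* (23.6 ± 1.22 FPKM) came next, also overlapping, and then *Cacna1g* (19.9 ± 0.428 FPKM) and *Cacna1b* (18.9 ± 0.783 FPKM). The release receptors and *Car8* stood lower: *Itpr1* (2.99 ± 0.216 FPKM) and *Ryr3* (2.73 ± 0.260 FPKM) overlapped each other, as did *Car8* (2.18 ± 0.166 FPKM) and *Ryr1* (2.13 ± 0.108 FPKM). *Ryr2* (1.43 ± 0.0834 FPKM), *Itpr3* (1.19 ± 0.0417 FPKM), *Cacnb2* (0.985 ± 0.0732 FPKM) and *Itpr2* (0.721 ± 0.0549 FPKM) followed in separate steps. *Atp2a3*, *Itpka*, *Atp2a1* and *Cacna2d4* closed the order at 0.405, 0.353, 0.185 and 0.0379 FPKM. A release receptor of a long gene is divided by a long gene model, so its place in the order depends on the gene length the authors listed.

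**Figure D4:**
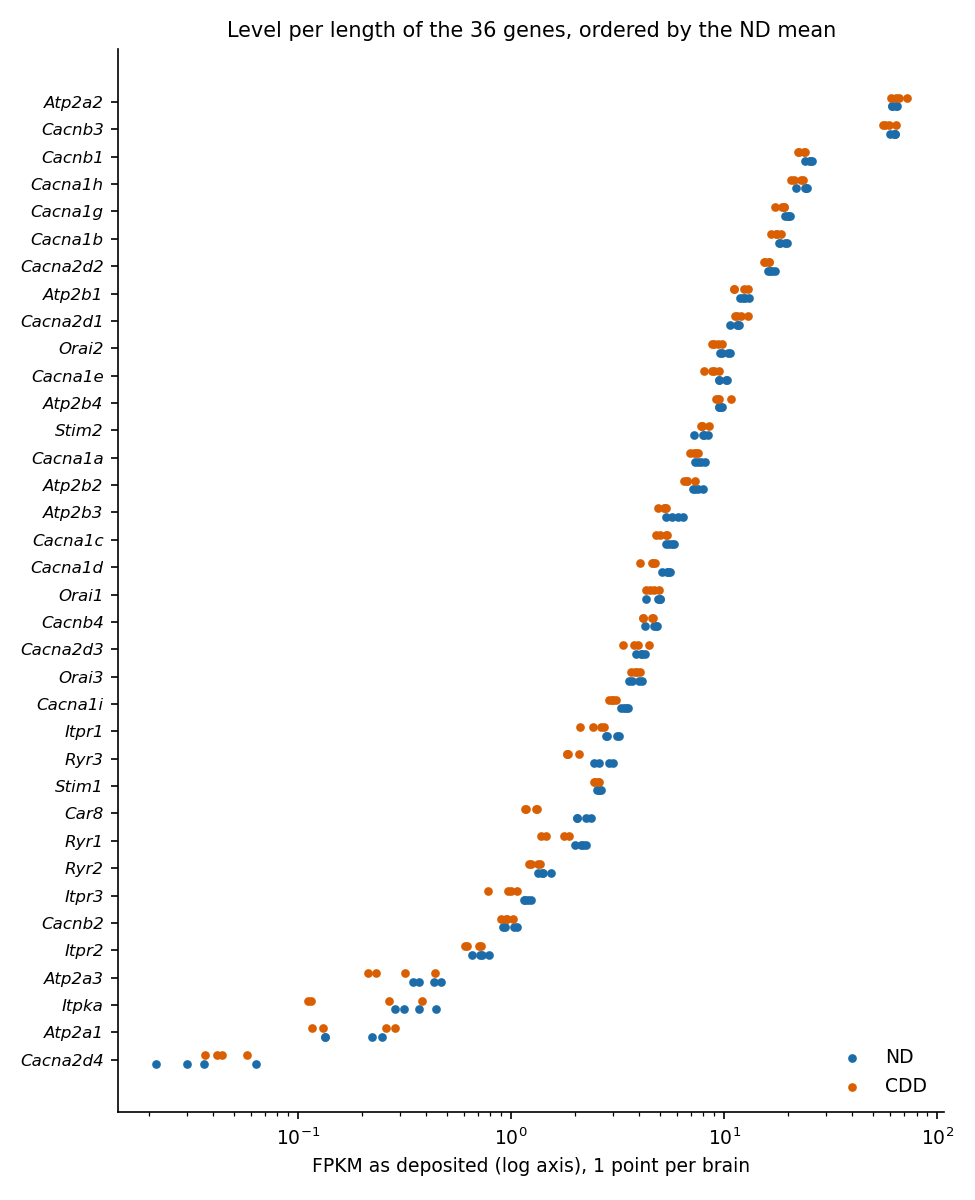
FPKM of the 36 genes on a log axis, 1 point per brain with ND in blue and CDD in orange, in the order of the ND mean. The ND mean runs from 63.0 FPKM for *Atp2a2* to 0.0379 FPKM for *Cacna2d4*, and the release receptors and *Car8* lie at ranks 24 to 32.

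Most of these genes are long. The gene model was at least 8000 bases for 23 of the 36, and the genes spanned a median of 118859 bases from start to end on the chromosome, against 17690 bases over all genes tested. Among all 2780 tested genes with a model of at least 8000 bases, 161 were called lower in CDD (5.79%) and 260 higher, with a median log2 fold change of 0.03. With the gene length taken up in the fit, 9 of the 36 genes were called lower, *Cacna1c* and *Atp2b2* among them. *Ryr1* then had a log2 fold change of -0.42 with an adjusted p of 0.0673 by edgeR, and -0.44 with an adjusted p of 0.0213 when the replicate block was added. *Cacna1d* overlaps *Dcp1a* and *Ryr3* overlaps *Aven*, both on the opposite strand, at mean levels of up to 49.8 and 6.69 CPM. Whether the counting used strand is not stated, so reads of such pairs may not be told apart.

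The promoter sequences of the called genes are shown where RefSeq (GRCm38.p6) lists one, as the 250 bases before the listed start: for each of the pore, ryanodine receptor and IP3 receptor genes, that of the called gene with the largest fall and an entry. *Cacna1d* has 2 listed starts (chr14:30491157-30491406 and chr14:30353487-30353736, minus strand), *Ryr1* has 1 (chr7:29125152-29125401, minus strand) and so does *Itpr3* (chr17:27057054-27057303, plus strand). None of these positions adjoins the deposited coordinates given above for the same gene. The build of the deposited coordinates is not named, so the 2 sets of positions cannot be compared. Capitals mark matches, on either strand, to a GC box (GGGCGG), an E-box (CAGCTG), a CRE (TGACGTCA) or a TATA box (TATAAA), and neighbouring matches may overlap.
Cacna1d, start 1: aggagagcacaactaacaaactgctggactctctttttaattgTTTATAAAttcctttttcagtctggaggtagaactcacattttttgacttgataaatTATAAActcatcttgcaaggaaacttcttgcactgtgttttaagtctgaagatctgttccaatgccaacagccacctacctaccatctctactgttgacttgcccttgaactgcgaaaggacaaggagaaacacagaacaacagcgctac
Cacna1d, start 2: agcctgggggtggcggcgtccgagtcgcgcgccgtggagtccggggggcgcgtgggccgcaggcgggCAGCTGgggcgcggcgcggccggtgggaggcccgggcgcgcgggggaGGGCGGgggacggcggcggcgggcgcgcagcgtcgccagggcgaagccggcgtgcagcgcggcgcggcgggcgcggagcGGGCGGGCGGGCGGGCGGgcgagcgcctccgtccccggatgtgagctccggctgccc
Ryr1: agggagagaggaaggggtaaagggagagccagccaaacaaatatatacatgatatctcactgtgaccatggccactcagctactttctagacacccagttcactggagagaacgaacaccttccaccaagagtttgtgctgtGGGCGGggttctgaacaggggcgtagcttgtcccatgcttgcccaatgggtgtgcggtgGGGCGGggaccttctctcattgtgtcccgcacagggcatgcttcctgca
Itpr3: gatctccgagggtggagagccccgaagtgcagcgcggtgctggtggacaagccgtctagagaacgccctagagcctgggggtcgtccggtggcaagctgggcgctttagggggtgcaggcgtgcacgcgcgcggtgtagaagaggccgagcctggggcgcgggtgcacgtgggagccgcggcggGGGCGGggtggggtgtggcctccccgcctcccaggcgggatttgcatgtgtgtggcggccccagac
The first start of *Cacna1d* has 39.6% G and C and 3 matches to the TATA box and none to the GC box, and the second has 86.4% G and C and 5 matches to the GC box. *Ryr1* holds 2 matches to the GC box and *Itpr3* 1. Over the 27 of 36 genes with an entry (38 starts), the GC box was matched in 24 starts (63.2%), against 32.7% of 32851 promoters of the same length. The E-box was matched in 21.1% of the starts (13.0% of all promoters), the TATA box in 2.63% (12.4%) and the CRE in 0 (1.55%). The median share of G and C was 70.0% in these starts and 52.4% in all promoters. For the called genes, 3 of 6 starts matched the GC box. A match describes letters only.

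Of 104 other genes of calcium handling, listed by function, 100 were tested. Of these 18 fell and 4 rose, with 74 log2 fold changes below 0 and a median of -0.08. Over all genes tested, 4.59% were called lower and 4.24% higher, and 50.9% had a log2 fold change below 0. This list too was chosen with earlier results of these data known, so nothing is read from the difference. The buffers and sensors, which bind calcium in the cytosol, had 5 of 12 lower, with the smallest p-values for *Ncald* (-0.35, edgeR adjusted p = 0.00116) and *Hpca* (-0.37, edgeR adjusted p = 0.00440), both calcium sensors of neurons. The enzymes and factors that respond to calcium had 5 of 21 lower and 2 higher, with the smallest p-value for the kinase gene *Camk2b* (-0.34, edgeR adjusted p = 0.00101). The 2 higher ones were the transcription factor genes *Nfatc3* (0.23) and *Nfatc4* (0.20).

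In the formation and removal of IP3, 2 of 17 genes fell and 1 rose. The metabotropic glutamate receptor gene *Grm5* (-0.39, edgeR adjusted p = 0.00436) fell, and the phospholipase gene *Plce1* (0.33) rose. Among the other channels 2 of 18 were lower, *Cacng3* (-0.40, edgeR adjusted p = 0.00548), which encodes an AMPA receptor auxiliary protein, and *Cacng5* (-0.46, edgeR adjusted p = 0.0183) of the same family. Of 9 exchangers, *Slc24a3* (-0.32, edgeR adjusted p = 0.00344) and *Slc8a1* (-0.22, edgeR adjusted p = 0.0207) fell. Of 13 store proteins, *Jph4* (-0.24, edgeR adjusted p = 0.00733), which ties the store to the plasma membrane in neurons, and *Fkbp1b* (-0.46, edgeR adjusted p = 0.0122), which binds ryanodine receptors, fell and *Calr* (0.16), a calcium buffer within the store, rose. None of the 10 mitochondrial genes was called by edgeR, with a median of -0.02.

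**Figure D5:**
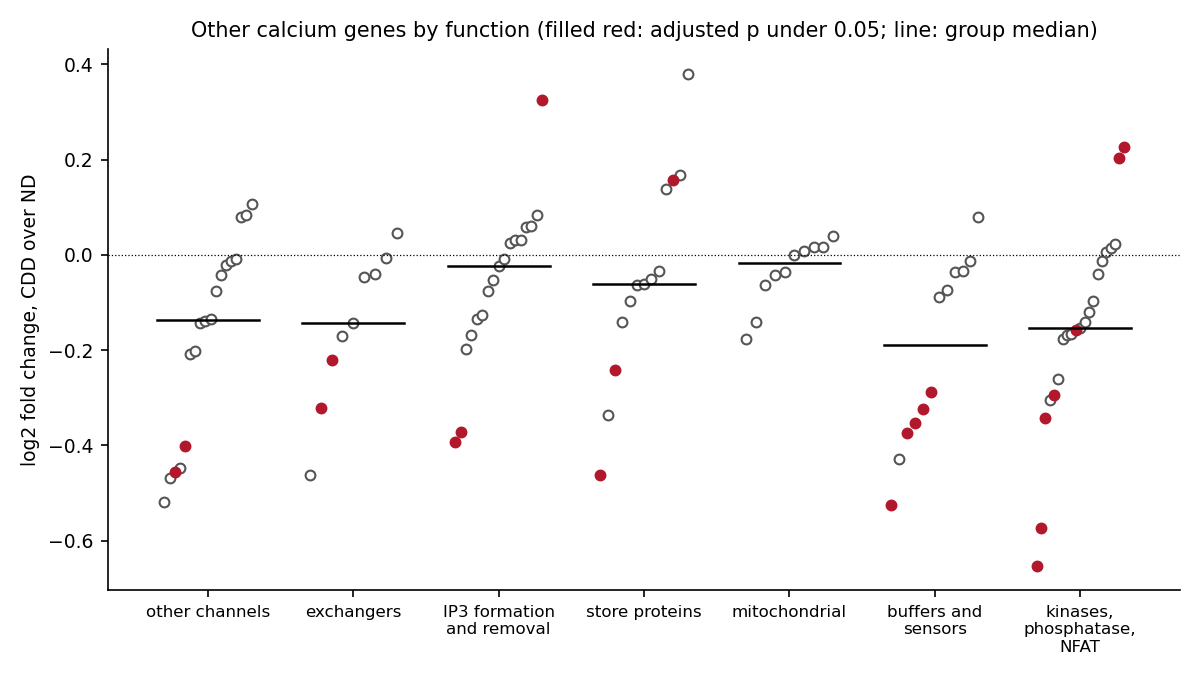
Log2 fold change of CDD over ND for the 100 tested genes of calcium handling outside the 36, by functional group; filled red points are called and the line is the group median. The mitochondrial group has no called gene, and the buffers and sensors have 5 called points, all below 0.

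Markers of several cell types differed between the diets, and in bulk RNA fewer cells of a type and less RNA per cell cannot be told apart. The part of the following in the falls above was not tested. Over all genes tested, 4.59% were called lower and 4.24% higher in CDD, and the marker lists were chosen with earlier results known. Neuron markers were abundant, and 2 of 12 fell with the calcium genes, *Snap25* (-0.23, edgeR adjusted p = 0.0246) and *Gap43* (-0.18, edgeR adjusted p = 0.0484). Their summed level, carried mostly by *Tubb3*, *Dcx* and *Map2*, was 7014 to 7838 CPM in CDD and 7198 to 7469 CPM in ND. *Tubb3* (0.02), *Dcx* (0.06) and *Stmn2* (-0.14) were not called, and the median log2 fold change of the 12 was -0.00. Of the progenitor markers 5 of 10 were called higher in CDD, with sums of 2077 to 2405 against 1842 to 1962 CPM (*Sox2* 0.09, not called, and *Pax6* 0.25). *Fabp7* (-0.04) and *Slc1a3* (0.03) lay near 0 and were not called, and neither were *Hes1* (0.23) and *Hes5* (0.21). Purkinje precursor markers, of interest for *Car8* and *Itpr1*, had 2 of 11 called higher and 0 lower (*Skor2* 0.11 and *Foxp2* 0.09, not called), with sums of 287 to 360 against 301 to 309 CPM. The list did not move one way: the called genes *Ebf2* (0.37) and *Lhx1* (0.29) rose, while *Pcp4* (-0.55, edgeR adjusted p = 0.0527, diets separate) and *Pcp2* (-1.04, edgeR adjusted p = 0.0808, under 1 CPM) were below 0 without passing the threshold. Striated muscle markers, of interest for *Ryr1*, summed to 7.48 to 8.08 against 7.37 to 8.88 CPM, with *Acta1* at 1.32 and 1.63 CPM, *Myh3* at 0.747 and 0.522 CPM, and none of 6 called. Of the erythroid markers the embryonic globins *Hbb-y* (2.24) and *Hba-x* (1.67) rose in CDD, and the sum of the 6 genes, 143 to 254 against 51.8 to 114 CPM, was mostly *Hbb-y* in CDD. The other 4 were not called and lay on both sides of 0, with *Alas2* at -0.50 and *Slc4a1* at -0.06. Smooth muscle and pericyte markers had 2 of 5 lower, with sums of 117 to 128 against 126 to 139 CPM. These were *Myh11* (-0.73, edgeR adjusted p = 0.0174), low at means of 1.27 CPM in CDD and 2.10 CPM in ND, and *Rgs5* (-0.18, edgeR adjusted p = 0.0268). *Acta2* (-0.23), *Tagln* (-0.24) and *Pdgfrb* (-0.002) were not called. Endothelial markers had 1 of 6 lower (227 to 240 against 243 to 252 CPM, *Pecam1* 0.09 and *Cdh5* -0.04, neither called). Markers of microglia and macrophages had 1 of 6 lower, with sums of 39.3 to 43.5 against 42.8 to 50.2 CPM. The called gene was *Cd163* (-1.38, edgeR adjusted p = 0.00309), which was low, at means of 0.676 CPM in CDD and 1.76 CPM in ND. *Cx3cr1* (-0.03), *Csf1r* (-0.18), *P2ry12* (-0.04), *Aif1* (0.29) and *C1qa* (-0.33) were not called. Of the retina markers 1 of 4 was higher, with sums of 17.9 to 24.0 against 23.9 to 25.0 CPM, and *Crx* and *Rcvrn* were too low to be tested. The markers of caudal hindbrain and spinal cord summed to 100 CPM in CDD replicate 2, where *Hoxa5* reached 33.1 CPM and *Hoxb5* 23.8 CPM, both at 0 in the other 7 brains. In ND brains the list summed to 4.20 to 6.30 CPM, nearly all of it from *Prph* (2.81 to 4.24 CPM) and *Slc6a5* (1.39 to 2.69 CPM), and in CDD its lowest sum was 3.74 CPM.

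Single brains weighed on the number of calls. Without CDD replicate 2, 5 of the 36 genes were called lower, *Atp2a3* among them in place of *Itpr1*, *Itpr3*, *Cacna1i* and *Cacna1e*, and without CDD replicate 1 or ND replicate 1 also 5. Without CDD replicate 3 the number was 11, with *Cacna1c*, *Cacnb1* and *Orai2* gained, and without CDD replicate 4 it was 9, with *Cacna1c* and *Atp2b2* gained and *Itpr1* lost. The number was 3 when ND replicate 3 or ND replicate 4 was left out, and 471 or 615 genes of the whole table were called in place of 1710. ND replicate 3 was the highest of the 8 brains for 17 of the 36 genes (47.2%), against 14.4% of all genes tested. *Car8*, *Ryr3* and *Cacna1d* were called in all 8 fits that left out 1 brain. *Ryr1* was called in 6 of them, and without ND replicate 3 its log2 fold change was -0.37 (edgeR adjusted p = 0.0529), without ND replicate 4 -0.39 (edgeR adjusted p = 0.0544). *Itpr1* was called in 4, *Cacna1i* in 3 and *Itpr3* and *Cacna1e* in 2 each. Without ND replicate 3 these 4 genes had log2 fold changes of -0.24, -0.17, -0.30 and -0.14, and without CDD replicate 2 of -0.21, -0.17, -0.32 and -0.13, none of them called.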

How the data were processed

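RNA of 8 whole brains of WT embryos at E14.5 (4 CDD, 4 ND) was selected with poly-T beads and sequenced. Per the submitters' processing notes, HISAT2 2.0.5, featureCounts 1.5.0-p3 and DESeq2 1.20.0 were used. The genome build and the strand setting are not given in the sources used here. The authors deposited raw counts per gene and brain, a normalized signal (each count over the size factor of its library) and FPKM values (that signal per kilobase of the listed gene length). Their own deposited comparison of the diets (log2 fold changes and p-values, with shorter lists chosen from it) was not used.

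Samples were grouped by the diet in the labels. Raw counts were filtered with filterByExpr, scaled by TMM and tested with the robust quasi-likelihood test of edgeR 4.0.16, with diet as the single term, and p-values were adjusted (Benjamini-Hochberg) over all 19367 genes tested. The standard error is the log2 fold change divided by the root of the F statistic. CPM is the count scaled to the TMM-adjusted library size, and FPKM was used as deposited to compare levels between genes. Totals of 31770217 to 43121170 counts and a biological coefficient of variation of 0.0814 set the precision. The fit was tested on simulated counts of 19114 genes, some of them with log2 fold changes of 0.3, 0.5 or 1. Of these, 15 of 67, 38 of 64 and 52 of 65 were called in the true direction. Among the genes left unchanged, 11 were called. The simulation changed far fewer genes than were called in the brains, so these shares may not carry over.

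The members, the other calcium genes and the marker lists (neurons, progenitors, Purkinje precursors, striated and smooth muscle, endothelium, erythroid cells, microglia, retina, caudal hindbrain) were chosen with earlier results of these data known. Values per brain are given for each called gene and for the gene of each role with the highest FPKM in ND, SE and adjusted p in full for up to 12 of the 36 genes, the 2 called genes with the smallest p per functional group, and the first 2 markers of each list. Some genes that this rule names are not reported here. Genes named beside these (the 4 called higher, and markers past the first 2 of a list) were chosen after their values were seen. Alternatives were DESeq2 1.42.0, limma 3.58.1 (voom, and log2 of FPKM plus 1 or 0.1), other size factors, filters and thresholds, a gene length offset, *Xist* as a covariate, a replicate block and leaving out each brain. R 4.3.3, Python 3.11.15, pandas 2.3.3, NumPy 2.4.6 and matplotlib 3.10.9 were used.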

Additional observations from a re-analysis of the deposited data

Results flagged for a closer look

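In 6 of 90 groups of 4 brains, 1 brain stood apart from the other 3 by Dixon's criterion, where chance gives about 1 in 20 groups, or 4.5 here. For *Ryr3*, CDD replicate 3 was the highest CDD brain at 5.31 log2 CPM, and it was also the highest CDD brain for the mean of the 6 release receptors, at -0.058 log2 CPM relative to the average of all brains. Both values lay on the side of the ND brains. For *Cacna1g*, CDD replicate 2 was low, at 7.46 log2 CPM. ND replicate 1 was the lowest ND brain for *Cacna1h* (7.74 log2 CPM) and *Cacnb3* (7.92 log2 CPM), and ND replicate 4 for *Orai1* (3.31 log2 CPM).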

How the results depend on the processing

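With edgeR's test, 1710 genes and 8 of the 36 were called, all 8 lower. The number of the 36 called lower was 7 to 10, and 0 were higher, with DESeq2 (8), RLE (7, without *Cacna1e*) or upper-quartile size factors (8), limma-voom (8), no filter (9) or at least 10 counts in every brain (8), a gene length offset (9), that offset with the replicate block (10) and *Xist* as a covariate (9). At an adjusted p under 0.01 the numbers were 477 genes and 3 of the 36. On log2(FPKM + 1) they were 519 and 2, and on log2(FPKM + 0.1) 527 and 2, the 2 being *Car8* and *Ryr3* (the cause was not tested). Leaving out 1 brain gave 471 to 2495 genes and 3 to 11 of the 36 lower, with 0 higher. The replicate numbers gave no clear pairing of the samples. Correlations of same-numbered brains were 0.105, -0.133, 0.117 and 0.232, against -0.250 to 0.214 for differently numbered brains. Only the value for replicate 4 lay above that range. The replicate block gave 1812 genes and 8 of the 36.

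Values near 0 changed sign. *Orai3* was at -0.00393 with upper-quartile size factors and -0.000755 with at least 10 counts. *Atp2b4* was at -0.00470 with the length offset, -0.00556 with offset and block, and -0.00210 with *Xist*. Over the fits leaving out 1 brain, *Atp2a1* ranged from -0.106 to 0.283, *Atp2b4* from -0.0375 to 0.0436, *Stim2* from -0.0256 to 0.0453 and *Orai3* from -0.0309 to 0.0354, and no call was made. *Itpka*, *Cacna2d4*, *Atp2a1* and *Atp2a3* were too low for small differences to be seen.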
